A study of Homo sapiens with 12 samples.

Results

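A list of 10 genes of the Hippo pathway, called members here, was followed across 12 RNA-seq libraries of the lung squamous cell carcinoma line NCI-H520. They were the coactivator genes YAP1 and WWTR1, their DNA-binding partner TEAD1, the upstream genes LATS2, AMOTL2 and AJUBA, and the target genes ANKRD1, CCN1, CCN2 and AXL. The 10 were a named list out of 58302 gene rows in the count table, of which 36072 had a count in any library and 17849 were tested, among them all 10. ANKRD1 was chosen by its readout, since it was among the largest falls from the control libraries to the NVR-labelled libraries, and the values of that contrast are therefore given as a description without a test. The libraries fell into 4 groups of 3 by their labels. NCI-H520 cells that stably overexpressed L1-FGGY, a transcript joining LINE-1 sequence to FGGY, from a lentivirus (OV-L1-FGGY) were treated with 0.2% DMSO as the vehicle, with 10 μM ML355, an inhibitor of 12-lipoxygenase, or with 450 μM NVR, a reverse transcriptase inhibitor. The remaining group was a DMSO control, read as the empty vector line (OV-CTRL) because its labels name DMSO and no L1-FGGY. Medium with the compound or vehicle was given 5 h after seeding, and the time under treatment was not given in the sources used here. No source states that the replicates were separate cultures, so p-values measure the spread between these samples, which may be technical.

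The Hippo pathway is a kinase cascade that restrains growth. Its kinases LATS1 and LATS2 phosphorylate the coactivators YAP (gene YAP1) and TAZ (gene WWTR1), which then stay in the cytoplasm or are degraded. When the cascade is off, YAP and TAZ enter the nucleus, bind TEAD factors and switch on genes such as CCN1, CCN2 and ANKRD1, and also LATS2 and AMOTL2, which act back on the pathway as inhibitors. Phosphorylation and nuclear entry are protein events that transcript counts do not measure.

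Some facts about the libraries stand before the results. FGGY, the overexpressed gene, had 4782 to 6196 counts in OV-L1-FGGY with DMSO and 5080 to 7346 with ML355, but 82 to 103 in the NVR-labelled libraries against 78 to 91 in OV-CTRL, so the NVR-labelled libraries went against their label. Reads of the construct and of the cells' own FGGY fall into 1 count here. The 12 libraries formed 2 sides, OV-L1-FGGY with DMSO or ML355 on one and the NVR-labelled libraries with OV-CTRL on the other. Pearson's r of log2 CPM was at least 0.932 within a side and at most 0.774 across, and 224 genes had at least 100 counts in each library of one side and at most 3 in each of the other. Any difference across the sides is therefore one in which construct or compound and cell background cannot be told apart. Of 6 markers of squamous epithelium, KRT5, KRT6A, DSG3 and PKP1 were at 3 counts or fewer in every library, and SOX2 was at 0 in OV-L1-FGGY with DMSO or ML355 against 360 to 446 counts in OV-CTRL. The summed level of the 6 was 17.2 to 21.3 CPM in OV-CTRL, 8.998 to 17.2 in the NVR-labelled libraries, 0.631 to 0.999 in OV-L1-FGGY with DMSO and 0.158 to 0.394 with ML355. The summed level of 10 mesenchyme markers was 1506 to 1913, 1308 to 1406, 1075 to 1168 and 820.5 to 1052 CPM in the same order, a sum carried mostly by FN1 and VIM. Gene by gene, 5 of the 8 mesenchyme markers tested (LUM, DCN, COL3A1, ZEB1 and COL1A1) were higher in OV-L1-FGGY with DMSO set against OV-CTRL. Another 2 (CDH2 and FN1) were lower. Of all genes tested, 32.5% were higher and 36.2% lower in this comparison. LUM had 4000 to 4327 counts in OV-L1-FGGY with DMSO and 2 or fewer in OV-CTRL. The summed level of 5 epithelium markers was 3940 to 5447, 1997 to 3308, 861 to 886 and 436 to 561 CPM in the same order of groups. This sum was carried mostly by KRT8 and KRT18. Gene by gene, 4 were lower and EPCAM was higher in OV-L1-FGGY with DMSO set against OV-CTRL, beside 36.2% and 32.5% of all genes. The group means of EPCAM were 1.57, 0.859, 8.87 and 9.17 CPM in that order. The summed level of 4 blood markers was 14.6 CPM or less in every library. Gene by gene, 2 of the 3 tested were lower and 1 was higher in OV-L1-FGGY with DMSO set against OV-CTRL, beside 36.2% and 32.5%. PTPRC was at 0 counts in OV-CTRL and the NVR-labelled libraries, 13 to 33 in OV-L1-FGGY with DMSO and 42 to 71 with ML355. CD14 had 83 to 116, 208 to 254, 19 to 20 and 1 to 13 counts in the same order of groups. The part of these differences in the members' values was not tested. In bulk RNA, fewer cells of a type and less RNA per cell cannot be told apart. Total counts per library ran from 16242082 to 27004768.

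The upstream sequences are shown because TEAD factors bind a short core, GGAATG or its reverse complement CATTCC, and the members that carry it next to their start could be set beside their values. RefSeq promoter windows of build GRCh38.p14 were available for 8 of the 10 members, in 12 windows. CCN1 and TEAD1 had no entry. In the 250 bases before the start, searched on both strands, 6 of the 12 windows had the core at least once, each from a different member. Of all 35116 windows of the same length, 11.9% had it. The members were listed as genes of this pathway and its targets, so their share describes the list and is no test. ANKRD1 had 2 copies, beginning 220 and 128 bases before the start, and CCN2 had 3, beginning 169, 104 and 95 bases before it, where 0.94% of all windows had at least 2 copies. YAP1 had 1 copy, 162 bases before the start. AMOTL2, AJUBA and AXL had 2 windows each and 1 copy in only 1 of them, at 69, 59 and 212 bases. Each of these windows with a copy lay inside the gene as annotated. The other window of AJUBA and of AXL, directly before the outer start of the gene, had no copy. WWTR1 and LATS2 had no match in these windows. For AP-1 factors a loose pattern, TGANTCA with any base at N, was searched. ANKRD1 had it as TGATTCA, 195 bases before its start, and 6.57% of all windows had the pattern. The pattern is looser than the AP-1 consensus, so the match does not mark an AP-1 site. The windows of ANKRD1 and CCN2 are printed for their several copies and that of AMOTL2 for its single copy, from 5′ to 3′ with the TEAD core in capitals. A match of letters is a description and not a measured binding site.
ANKRD1 (chr10:90921088-90921337, minus strand): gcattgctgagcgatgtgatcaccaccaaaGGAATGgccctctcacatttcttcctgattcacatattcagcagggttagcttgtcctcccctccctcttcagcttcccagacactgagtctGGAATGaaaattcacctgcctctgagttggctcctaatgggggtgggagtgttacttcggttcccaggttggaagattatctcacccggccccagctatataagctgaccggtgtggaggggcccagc
CCN2 (chr6:131951373-131951622, minus strand): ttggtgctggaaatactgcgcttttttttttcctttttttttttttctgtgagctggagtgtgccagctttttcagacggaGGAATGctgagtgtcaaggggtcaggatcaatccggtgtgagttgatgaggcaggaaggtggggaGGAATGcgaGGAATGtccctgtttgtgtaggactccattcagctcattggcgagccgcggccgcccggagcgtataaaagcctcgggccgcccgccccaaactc
AMOTL2 (chr3:134374448-134374697, minus strand): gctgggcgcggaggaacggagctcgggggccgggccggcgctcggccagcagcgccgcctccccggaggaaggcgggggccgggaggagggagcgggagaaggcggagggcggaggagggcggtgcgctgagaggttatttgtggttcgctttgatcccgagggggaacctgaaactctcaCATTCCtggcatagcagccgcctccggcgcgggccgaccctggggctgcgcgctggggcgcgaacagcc

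ANKRD1 encodes a nuclear ankyrin repeat protein first known from heart muscle and is a classical YAP target. The gene lies on chromosome 10 from 90912096 to 90921087 of GRCh38, on the minus strand. The OV-CTRL libraries held 165, 179 and 198 counts of it, in the order of their replicate numbers, with 13, 11 and 6 in the NVR-labelled libraries, 25, 28 and 29 in OV-L1-FGGY with DMSO and 11, 6 and 1 with ML355. In CPM, counts scaled to the library total with TMM factors, this was 7.18 ± 0.362 (SD, n = 3) in OV-CTRL, 0.462 ± 0.168 in the NVR-labelled libraries, 1.46 ± 0.0198 in OV-L1-FGGY with DMSO and 0.301 ± 0.245 with ML355. OV-CTRL stood above every other library, OV-L1-FGGY with DMSO lay in the middle with little spread, and the ML355 and NVR libraries overlapped each other at the bottom. One count was worth 0.0370 to 0.0574 CPM, and ML355 replicate 3 rests on a single count.

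The secreted matricellular proteins CYR61 and CTGF are encoded by CCN1 and CCN2, widely used reporters of YAP and TAZ. CCN1, on chromosome 1 from 85580761 to 85584589, was at 273, 272 and 255 CPM in replicates 1 to 3 of OV-CTRL and 111, 114 and 97.6 in the NVR-labelled libraries. In OV-L1-FGGY it was at 191, 222 and 222 with DMSO and 161, 199 and 196 with ML355. For CCN1, OV-CTRL was above and the NVR-labelled libraries were below all others, and DMSO and ML355 overlapped between them. CCN2, on chromosome 6 from 131948176 to 131951372, was at 64.1, 69.0 and 69.1 CPM in OV-CTRL and 28.7, 31.1 and 21.2 in the NVR-labelled libraries. In OV-L1-FGGY it was at 41.5, 37.7 and 40.9 with DMSO and 16.3, 30.3 and 19.5 with ML355. For CCN2 the order was OV-CTRL, then OV-L1-FGGY with DMSO, then the ML355 and NVR libraries, which overlapped.

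YAP1 and WWTR1 differed in their order. YAP1, on chromosome 11 from 102110447 to 102233424, was at 56.7, 67.1 and 63.8 CPM in OV-CTRL and 43.8, 52.8 and 47.4 in the NVR-labelled libraries. In OV-L1-FGGY it was at 164, 134 and 156 with DMSO and 146, 178 and 172 with ML355. All 6 libraries of OV-L1-FGGY with DMSO or ML355 were above the other 6, and DMSO and ML355 overlapped. WWTR1, on chromosome 3 from 149517235 to 149736714, was at 88.8, 96.3 and 109 CPM in OV-CTRL and 65.8, 71.3 and 61.2 in the NVR-labelled libraries. In OV-L1-FGGY it was at 69.9, 60.1 and 62.6 with DMSO and 38.2, 45.2 and 44.03 with ML355. WWTR1 was highest in OV-CTRL and lowest with ML355, while the NVR-labelled libraries overlapped OV-L1-FGGY with DMSO.

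TEAD1 encodes a DNA-binding partner of YAP and TAZ and lies on chromosome 11 from 12674421 to 12944737. It was at 115, 149 and 183 CPM in OV-CTRL and 93.0, 115 and 77.5 in the NVR-labelled libraries. It was at 437, 343 and 425 with DMSO and 245, 267 and 222 with ML355 in OV-L1-FGGY. The 2 sides did not overlap for TEAD1, whereas OV-CTRL replicate 1 and NVR replicate 2 did. LATS2, on chromosome 13 from 20973036 to 21061586, was at 21.1, 30.4 and 32.4 CPM in OV-CTRL and 10.1, 16.8 and 7.63 in the NVR-labelled libraries. It was at 56.0, 53.7 and 60.7 with DMSO and 43.7, 53.2 and 47.0 with ML355 in OV-L1-FGGY. LATS2 was lowest in the NVR-labelled libraries and higher in every library of the other side.

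AMOTL2 encodes an angiomotin family protein that holds YAP at junctions, and AJUBA a LIM domain scaffold that inhibits LATS kinases. AMOTL2, on chromosome 3 from 134355347 to 134375479, was at 128, 165 and 179 CPM in OV-CTRL and 26.97, 41.1 and 19.4 in the NVR-labelled libraries. In OV-L1-FGGY it was at 310.3, 293 and 343 with DMSO and 115, 126 and 116 with ML355. OV-L1-FGGY with DMSO was the highest group, ML355 lay below every OV-CTRL library, and the NVR-labelled libraries were the lowest. AJUBA, on chromosome 14 from 22971177 to 22982551, was at 192, 210.3 and 212 CPM in OV-CTRL and 51.4, 62.9 and 47.5 in the NVR-labelled libraries. It was at 85.5, 85.0 and 82.5 with DMSO and 42.3, 46.5 and 55.5 with ML355 in OV-L1-FGGY. AJUBA had the same order as ANKRD1 and CCN2, with OV-CTRL on top and overlap between the ML355 and NVR libraries.

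AXL, a receptor tyrosine kinase for the ligand GAS6, lies on chromosome 19 from 41219223 to 41261766. It was at 248, 276 and 291 CPM in OV-CTRL and 102, 107 and 99.5 in the NVR-labelled libraries. In OV-L1-FGGY it was at 80.7, 79.4 and 81.5 with DMSO and 124, 119 and 119 with ML355. None of the 4 groups overlapped, and AXL alone among the 10 was lowest in OV-L1-FGGY with DMSO.

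**Figure D1:**
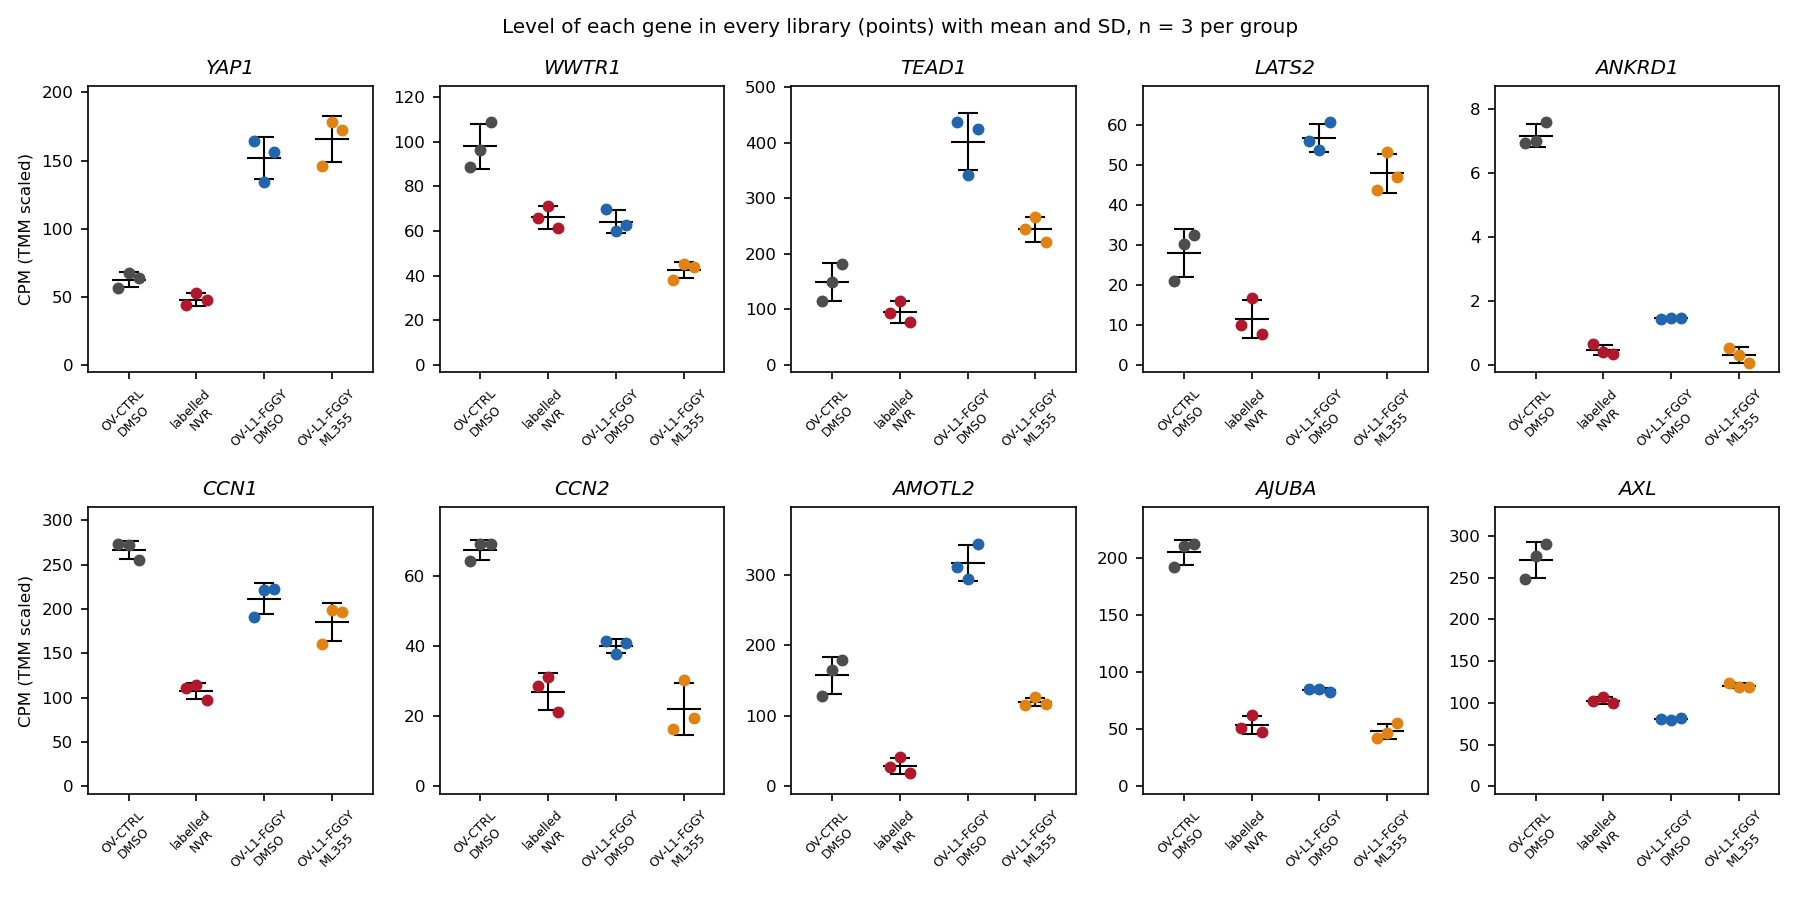
CPM with TMM scaling (linear axis) of each of the 10 genes in every library, by group, as points with the group mean and SD (n = 3). OV-CTRL is highest for ANKRD1 (6.94 to 7.60 CPM), CCN1, CCN2, AJUBA, AXL and WWTR1, whereas OV-L1-FGGY with DMSO or ML355 is highest for YAP1, TEAD1 and LATS2 and OV-L1-FGGY with DMSO alone for AMOTL2.

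Levels of different genes were compared per kilobase of exon. In OV-CTRL the level ran from 72.1 ± 2.68 CPM per kilobase (SD, n = 3) for CCN1 through AXL at 52.9 ± 4.18, AJUBA at 34.8 ± 1.88, CCN2 at 28.8 ± 1.22 and AMOTL2 at 24.2 ± 4.03 to TEAD1 at 13.9 ± 3.15, WWTR1 at 11.7 ± 1.20 and YAP1 at 9.90 ± 0.845. LATS2 at 4.98 ± 1.08 and ANKRD1 at 4.01 ± 0.202 were the lowest. In that order the ranges over replicates of CCN2 and AMOTL2, TEAD1 and WWTR1, WWTR1 and YAP1, and LATS2 and ANKRD1 overlapped. In OV-L1-FGGY with DMSO the order was different, with AMOTL2 at 48.7 ± 3.93 and TEAD1 at 37.5 ± 4.80 next below CCN1 at 57.2 ± 4.82, and ANKRD1 at 0.813 ± 0.0111. The ratio of YAP1 to WWTR1 within a library, per kilobase, was 0.777 to 0.922 in OV-CTRL and 0.880 to 1.03 in the NVR-labelled libraries. It was 2.96 to 3.31 in OV-L1-FGGY with DMSO and 5.06 to 5.21 with ML355, so that this ratio did not overlap between DMSO and ML355. TEAD1 made up 47.4% to 54.7% of the summed level of TEAD1 to TEAD4 per kilobase in OV-L1-FGGY with DMSO and 28.8% to 34.99% with ML355, while the sum itself overlapped, at 67.6 to 77.2 and 71.3 to 77.0 CPM per kilobase.

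The effect of ML355 was tested in OV-L1-FGGY, a comparison that uses no library of the contrast in which ANKRD1 was chosen. ANKRD1, CCN2, AMOTL2, AJUBA, TEAD1 and WWTR1 fell and AXL rose, while YAP1, LATS2 and CCN1 did not pass the test. At an adjusted p under 0.01 in edgeR's quasi-likelihood test, 6 of the 10 members were lower, where 23.5% of all genes tested were, and 1 of 10 was higher, where 21.3% were. The median log2 fold change of the 10 was -0.65 against a median of all genes near 0. ANKRD1 fell 4.83-fold in mean CPM, a log2 fold change of -2.23 ± 0.43 (standard error) with edgeR adjusted p = 3.51e-04. Without ML355 replicate 1 its log2 fold change was -2.96 and without replicate 3, the library with 1 count, -1.75, both past the threshold. AMOTL2 fell 2.65-fold (-1.40 ± 0.20, edgeR adjusted p = 1.66e-05). CCN2 fell 1.82-fold (-0.86 ± 0.19) and AJUBA 1.75-fold (-0.81 ± 0.12). Of the nuclear factors, TEAD1 had -0.71 ± 0.17 and WWTR1 -0.59 ± 0.12, and both fell below every DMSO library. The call of TEAD1 was lost without DMSO replicate 1 (edgeR adjusted p = 0.0104) or without ML355 replicate 3 (edgeR adjusted p = 0.0116), at a log2 fold change of -0.66 and -0.65. AXL rose 1.498-fold (0.58 ± 0.10, edgeR adjusted p = 8.06e-05). YAP1 had 0.13 ± 0.12, LATS2 -0.24 ± 0.21 and CCN1 -0.19 ± 0.11 on the log2 scale, which does not show that they were unchanged.

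The next comparison set OV-L1-FGGY with DMSO set against OV-CTRL with DMSO and crosses the 2 sides. YAP1, TEAD1, LATS2 and AMOTL2 were higher in OV-L1-FGGY, and WWTR1, CCN2, AJUBA and AXL were lower. ANKRD1 is described only, since it was chosen with the OV-CTRL libraries. Of the 9 members tested, 4 were higher, where 32.5% of all genes tested were, and 4 were lower, where 36.2% were, so these counts lie near the background. TEAD1 rose 2.70-fold (1.43 ± 0.17, edgeR adjusted p = 1.18e-06) and YAP1 2.43-fold (1.28 ± 0.12). LATS2 had 1.02 ± 0.21 and AMOTL2 1.01 ± 0.19. AXL fell 3.37-fold (-1.75 ± 0.10, edgeR adjusted p = 1.10e-10) and AJUBA 2.43-fold (-1.28 ± 0.12). CCN2 had -0.75 ± 0.18, a call lost with scaling by library size alone (edgeR adjusted p = 0.0112), and WWTR1 -0.61 ± 0.11. CCN1 missed the threshold at -0.33 ± 0.11 (edgeR adjusted p = 0.0131), although its 3 OV-L1-FGGY libraries all lay below OV-CTRL, and it passed under 5 of the alternatives. The log2 fold change of ANKRD1 was -2.30 ± 0.31.

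The contrast in which ANKRD1 was chosen set the NVR-labelled libraries compared with OV-CTRL, which lie on the same side. All 10 members had negative log2 fold changes. The 3 NVR-labelled libraries were below all 3 of OV-CTRL for 9 of them, TEAD1 being the exception. ANKRD1 is in both counts because it was chosen by its fall in this contrast, so these counts are a description only. Over all genes tested, 26.5% were lower without overlap. No test is given for the members here. ANKRD1 was 15.5-fold lower in mean CPM, a log2 fold change of -3.94 ± 0.35, and was the 14th from the largest fall among 17849 genes. AMOTL2 followed at -2.42 ± 0.21 and AJUBA at -1.92 ± 0.13. AXL had -1.40 ± 0.10, CCN2 -1.32 ± 0.18, CCN1 -1.31 ± 0.11 and LATS2 -1.27 ± 0.22. The smallest changes were those of TEAD1 at -0.64 ± 0.17, WWTR1 at -0.57 ± 0.11 and YAP1 at -0.38 ± 0.12. With any one library left out, LATS2 was between -1.66 and -1.04, AMOTL2 between -2.76 and -2.19 and TEAD1 between -0.80 and -0.47, with the larger falls of LATS2 and AMOTL2 without NVR replicate 2.

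Against OV-L1-FGGY with DMSO, the baseline that the labels give, the NVR-labelled libraries had lower YAP1, TEAD1, LATS2, AMOTL2, CCN1 and AJUBA and higher AXL. This comparison crosses the sides and shares its libraries with the others. Of the 9 members tested, 6 were lower, where 35.4% of all genes tested were, and 1 was higher, where 38.2% were. AMOTL2 fell 10.8-fold (-3.43 ± 0.21, edgeR adjusted p = 3.41e-10). LATS2 fell 4.94-fold (-2.29 ± 0.22), TEAD1 4.21-fold (-2.07 ± 0.18) and YAP1 3.16-fold (-1.66 ± 0.12). CCN1 had -0.98 ± 0.11 and AJUBA -0.64 ± 0.12. AXL rose by 0.35 ± 0.10 on the log2 scale (edgeR adjusted p = 0.00289), a call that was lost without any one of DMSO replicates 1, 2 or 3 or NVR replicates 1 or 2 (edgeR adjusted p = 0.0111 to 0.0144) and with scaling by library size alone, where the value was 0.11. CCN2 missed the threshold at -0.56 ± 0.18 (edgeR adjusted p = 0.0101) and passed it without NVR replicate 2, at -0.69, and under 5 other alternatives. WWTR1 was at 0.04 ± 0.11, and ANKRD1, described only, at -1.65 ± 0.39.

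**Figure D2:**
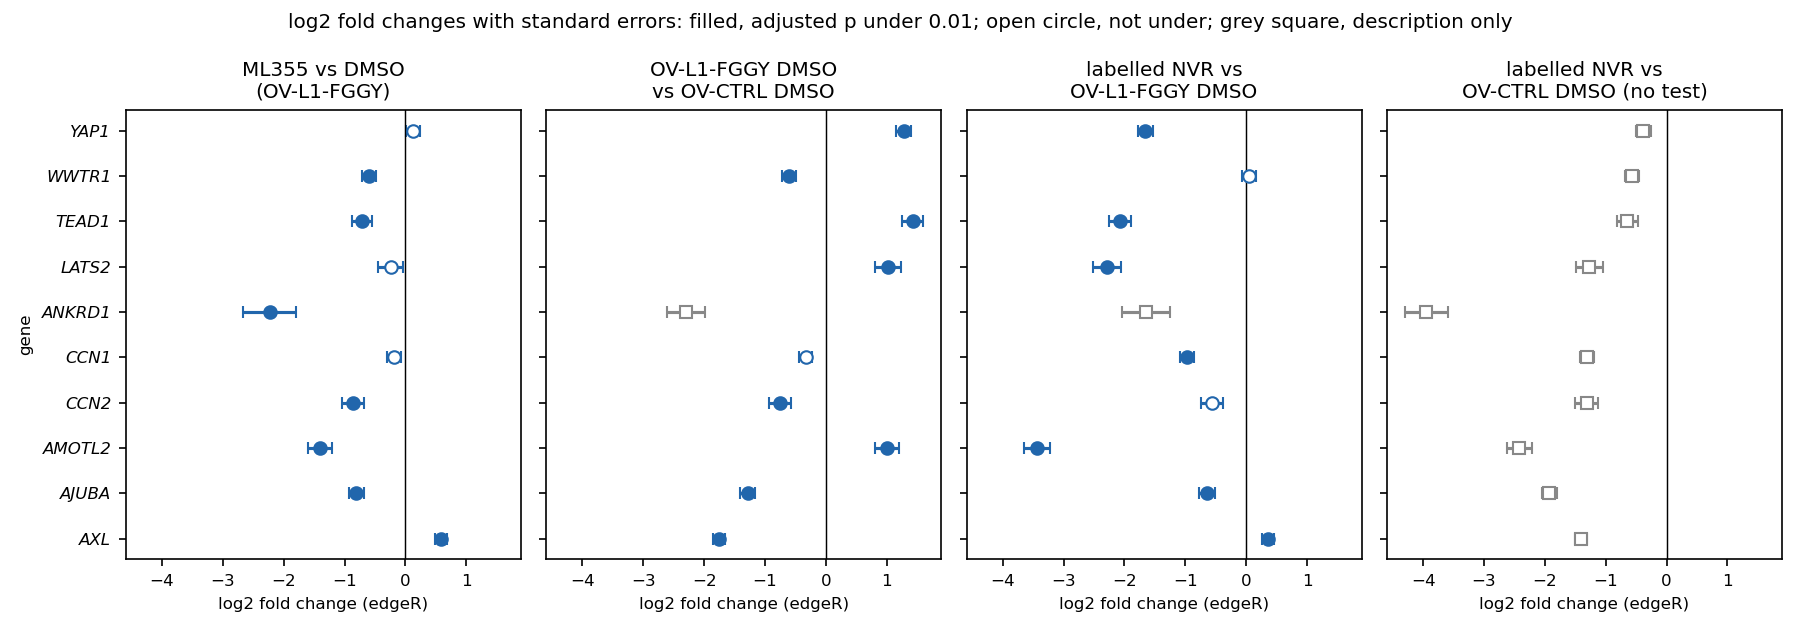
Log2 fold changes from edgeR (x axis) with standard errors for each of the 10 genes (y axis) in the 4 comparisons, where filled circles passed an adjusted p under 0.01, open circles did not and grey squares are descriptions. ANKRD1 is at -2.23 with ML355, and all 10 genes lie left of 0 in the NVR-labelled libraries compared with OV-CTRL. ANKRD1 was chosen by its fall in that last comparison.

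Another 16 YAP and TAZ targets were counted in the same way. With ML355, 10 of the 16 fell, where 23.5% of all genes tested did, and 3 rose, where 21.3% did, with a median log2 fold change of -0.82. FJX1, which encodes a secreted regulator, had a log2 fold change of -3.17 ± 0.17 (edgeR adjusted p = 7.26e-10) and DOCK5, a Rac exchange factor, -0.95 ± 0.10. The 3 that rose were GADD45A, a stress response gene, at 4.47 ± 0.15 (edgeR adjusted p = 7.84e-12), NUAK2, an AMPK-related kinase, at 1.23, and CCDC80 at 1.21. In the NVR-labelled libraries compared with OV-CTRL, 10 of the 16 fell, where 15.3% of all genes tested did, and NT5E, the ecto-enzyme CD73, was the 1 that rose, where 14.5% did. The median log2 fold change there was -0.58. IGFBP3, an IGF binding protein, had -1.81 ± 0.15 (edgeR adjusted p = 2.15e-07), TGFB2, a TGF-beta ligand, -2.11 ± 0.27 and NUAK2 -1.30 ± 0.15. Across the sides, genes of the list went both ways. In OV-L1-FGGY with DMSO set against OV-CTRL, 8 fell, where 36.2% of all genes did. There 5 rose (F3, NT5E, PTPN14, RBMS3 and FOXF2), where 32.5% of all genes did. FJX1 was at -3.02 ± 0.13, GADD45A at -3.08 ± 0.14 and NUAK2 at -3.50 ± 0.17. In the NVR-labelled libraries relative to OV-L1-FGGY with DMSO, 10 fell, where 35.4% of all genes did. There 5 rose (GADD45A, FJX1, CCDC80, NUAK2 and IGFBP3), where 38.2% of all genes did. F3, tissue factor, was at -3.82 ± 0.19 and FJX1 at 2.66 ± 0.13.

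**Figure D3:**
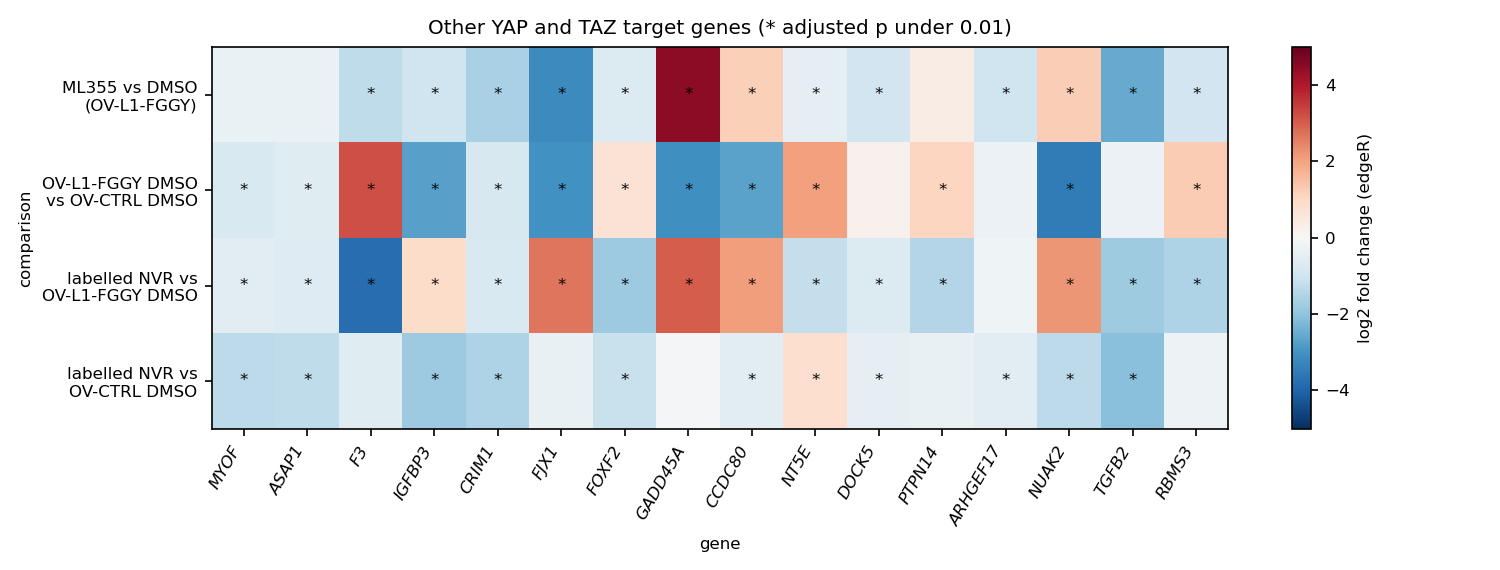
Log2 fold changes from edgeR, as colour from -5 to 5, of 16 other YAP and TAZ targets (x axis) in the 4 comparisons (y axis), with an asterisk at an adjusted p under 0.01. Of the 16, 10 are lower with ML355 and 10 in the NVR-labelled libraries compared with OV-CTRL, where 23.5% and 15.3% of all genes are. GADD45A is at 4.47 with ML355.

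The kinase cascade upstream of YAP was counted next. Of 23 cascade genes other than LATS2, 8 fell and 3 rose (SAV1, LATS1 and MAP4K2) with ML355, with a median log2 fold change of -0.15, beside 23.5% and 21.3% of all genes. STK38, an NDR kinase that can phosphorylate YAP, fell by 1.43 ± 0.10 on the log2 scale, MAP4K4 had -0.88 ± 0.11 and WWC3 -0.99 ± 0.14. Where the NVR-labelled libraries were compared with OV-CTRL, 3 fell (WWC1, WWC2 and MAP4K5) and TAOK3 rose, beside 15.3% and 14.5% of all genes. The median was -0.14. WWC1, the KIBRA scaffold that activates LATS, was at -1.71 ± 0.14 there (edgeR adjusted p = 1.79e-07). Across the sides, 15 of the 23 were higher and 6 lower in OV-L1-FGGY with DMSO set against OV-CTRL, beside 32.5% and 36.2% of all genes, among them STK38 at 1.42 ± 0.10 and WWC1 at -1.82 ± 0.14. Where the NVR-labelled libraries were set beside DMSO in OV-L1-FGGY, 15 fell and 5 rose (TAOK2, MINK1, TNIK, MAP4K1 and NF2), beside 35.4% and 38.2% of all genes.

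Of 18 junction and scaffold regulators tested out of 19, 5 fell (DLG1, LLGL1, LLGL2, AMOTL1 and FAT4) and 2 rose (PATJ and SCRIB) with ML355, beside 23.5% and 21.3% of all genes. PTPN14, which is also a YAP target, is counted in both lists. With the NVR label, relative to OV-CTRL, 7 fell and LLGL2 rose, beside 15.3% and 14.5%. PATJ, a polarity scaffold, rose by 1.22 ± 0.12 on the log2 scale with ML355 and was at -0.58 ± 0.12 in the NVR comparison, where TJP1, the junction protein ZO-1, was at -0.80 ± 0.14. In OV-L1-FGGY with DMSO set against OV-CTRL, 8 rose and 6 fell (32.5% and 36.2% of all genes), and in the NVR-labelled libraries relative to OV-L1-FGGY with DMSO 9 fell and 4 rose (WTIP, SCRIB, FAT1 and DCHS1), where 35.4% and 38.2% of all genes did. AMOTL1, the paralog of AMOTL2, had 1.77 ± 0.15 and -2.34 ± 0.15 in these. Of 11 genes of STRIPAK, the phosphatase complex that counteracts the cascade, MOB4 fell and 3 rose with ML355. Those that rose were STRN4, at 1.01 ± 0.11, FGFR1OP2 and STRN3. Of all genes, 23.5% fell and 21.3% rose with ML355. In the NVR-labelled libraries compared with OV-CTRL, 2 of the 11 fell and 1 rose, beside 15.3% and 14.5% of all genes. The other 8 did not pass the test. Across the sides, 7 rose and 2 fell (STRN4 and PPP2R1A) in OV-L1-FGGY with DMSO set against OV-CTRL, where 32.5% and 36.2% of all genes did, and 8 fell and 2 rose (STRN4 and PPP2R1A) in the NVR-labelled libraries relative to OV-L1-FGGY with DMSO, where 35.4% and 38.2% did.

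Of the paralogs of TEAD1, TEAD4 and TEAD3 rose and TEAD2 fell with ML355. TEAD4 rose 2.23-fold (1.16 ± 0.13, edgeR adjusted p = 2.48e-06), TEAD3 rose by 0.56 ± 0.12 and TEAD2 fell by 0.65 ± 0.11 on the log2 scale. Of the 7 TEAD and VGLL genes apart from TEAD1, 5 were tested. With ML355 2 fell and 2 rose, beside 23.5% and 21.3% of all genes. The other gene that fell was VGLL3, a TEAD cofactor, at -1.42 ± 0.18. Where the NVR-labelled libraries were compared with OV-CTRL, TEAD2 was the 1 that fell, at -0.80 ± 0.11, and none rose. Of all genes, 15.3% fell and 14.5% rose there. TEAD3 had 0.12 ± 0.13 and TEAD4 -0.36 ± 0.13. In OV-L1-FGGY with DMSO set against OV-CTRL, TEAD3 and VGLL3 rose, at 2.01 ± 0.13 and 2.75 ± 0.19, and TEAD4 fell, at -1.32 ± 0.13. There 32.5% of all genes rose and 36.2% fell. Where the NVR-labelled libraries were set beside DMSO in OV-L1-FGGY, VGLL3, TEAD3 and TEAD2 fell and TEAD4 rose, at 0.96 ± 0.13. In that comparison 35.4% of all genes fell and 38.2% rose.

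Among the relatives of the target genes, CCN3 and CCN5 passed the filter on low counts and CCN4 and CCN6 did not, at 11 counts or fewer in every library. CCN3 had 1284 to 1539 counts in OV-L1-FGGY with DMSO, 468 to 556 with ML355, 11 to 19 in the NVR-labelled libraries and 13 to 18 in OV-CTRL. With ML355, CCN3 fell by 1.58 ± 0.13 and CCN5 by 2.86 ± 0.20 on the log2 scale (edgeR adjusted p = 4.40e-08 and 1.25e-08). CCN5 was also lower in the NVR-labelled libraries, at -0.93 ± 0.19 against OV-CTRL. ANKRD2, a muscle ankyrin repeat gene of the ANKRD1 family, had 189 to 220 counts in OV-CTRL, 15 to 20 in the NVR-labelled libraries, 0 to 6 in OV-L1-FGGY with DMSO and 0 in all 3 libraries with ML355. Its change in the NVR-labelled libraries compared with OV-CTRL was -3.31 ± 0.39 (edgeR adjusted p = 1.60e-05), and it was also lower in OV-L1-FGGY with DMSO set against OV-CTRL (edgeR adjusted p = 8.72e-08). ANKRD23, the third family member, did not pass the test in any comparison, with 11 to 19 counts in OV-CTRL and 3 to 23 with ML355.

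Of the AXL relatives, PROS1, a ligand of the AXL family, fell by 1.60 ± 0.12 on the log2 scale with ML355, while the ligand GAS6 had -0.14 ± 0.18 and the receptor TYRO3 0.36 ± 0.16. With the NVR label, relative to OV-CTRL, where AXL was lower, TYRO3 fell as well, at -1.36 ± 0.17, and GAS6 rose, at 1.38 ± 0.18. The receptor gene MERTK was at 3 counts or fewer in every library of OV-L1-FGGY with DMSO or ML355, at 54 to 79 counts in OV-CTRL and 64 to 149 in the NVR-labelled libraries. Set at the floor of 3 counts per library, it was at least 16.02-fold lower in OV-L1-FGGY with DMSO than in OV-CTRL. TYRO3, GAS6 and PROS1 were higher there, at 0.79 ± 0.16, 1.21 ± 0.18 and 3.27 ± 0.13. Against OV-L1-FGGY with DMSO, PROS1 had -2.97 ± 0.13 and TYRO3 -2.15 ± 0.17 in the NVR-labelled libraries.

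CCN1 and CCN2 are also known targets of SRF, and AP-1 factors often bind next to TEAD, so both groups were counted. Of 15 SRF and actin genes tested out of 16, 2 fell and 6 rose with ML355, with a median of 0.20, beside 23.5% and 21.3% of all genes. SRF itself rose 2.32-fold (1.21 ± 0.13, edgeR adjusted p = 7.14e-07), and MRTFB, an SRF coactivator, and TAGLN, the smooth muscle protein SM22, fell, at -1.36 ± 0.16 and -1.33 ± 0.18. In the NVR-labelled libraries compared with OV-CTRL, 8 fell and ACTA2 rose (15.3% and 14.5% of all genes), with a median of -0.55, among them TPM1, a tropomyosin, at -1.64 ± 0.12 and ACTN1, an actinin, at -0.85 ± 0.11. In OV-L1-FGGY with DMSO set against OV-CTRL, 10 fell and 3 rose (FHL2, MYL9 and VCL), where 36.2% and 32.5% of all genes did, and in the NVR-labelled libraries relative to OV-L1-FGGY with DMSO 4 fell (FHL2, MYL9, VCL and MRTFB) and 8 rose, where 35.4% and 38.2% did. Of 7 AP-1 genes, 5 rose (JUN, FOS, JUNB, FOSB and FOSL1) and FOSL2 fell with ML355 (21.3% and 23.5% of all genes). JUN was at 3.30 ± 0.15 and FOS at 3.39 ± 0.18. A link of the AP-1 changes to the members' values was not tested. Where the NVR-labelled libraries were compared with OV-CTRL, 3 fell (FOSL1, FOSL2 and JUN) and 2 rose (JUNB and FOS), beside 15.3% and 14.5%, FOSL1 at -1.41 ± 0.16 and JUNB at 1.00 ± 0.14. Across the sides, where 36.2% of all genes fell, 6 of the 7 fell in OV-L1-FGGY with DMSO set against OV-CTRL, FOS at -5.67 ± 0.20, and 6 rose, where 38.2% did, in the NVR-labelled libraries against OV-L1-FGGY with DMSO.

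The genes whose log2 CPM was most like that of ANKRD1 over the 12 libraries, among 13839 with a symbol and a mean of at least 1 CPM, were MACROH2A1 (Pearson's r = 0.96), OXTR (0.96), MRPL15 (0.96), MAGOHB (0.94) and ZHX2 (0.94). The 12 libraries share 4 groups and 2 sides, so these values describe an order of group means. For OXTR, the oxytocin receptor, the group means were 5.32 ± 0.392 CPM in OV-CTRL, 3.13 ± 0.362 in OV-L1-FGGY with DMSO, 2.08 ± 0.152 in the NVR-labelled libraries and 1.63 ± 0.437 with ML355 (SD, n = 3). MACROH2A1, a histone variant gene, ranged from 156 to 210.1 CPM over the group means, a far narrower span than that of ANKRD1. None of the other 9 members was among these 5. The closest were AJUBA (0.92) and CCN2 (0.91), while YAP1 (-0.32) and TEAD1 (-0.0035) had negative values.

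Within the groups, libraries differed by gene length, and most members deviated the same way within each library where this was strongest. The rank correlation of a library's deviation from its group mean with exon length, across genes, was 0.35 in NVR replicate 2 and -0.32 in NVR replicate 3, and -0.35 and 0.30 in OV-CTRL replicates 1 and 3, while it was between -0.20 and 0.16 in the other 8 libraries. Of the 10 members, 7 have over 5000 bases of exon. All 10 were below their group mean in NVR replicate 3 and 9 in OV-CTRL replicate 1, against 1 each in NVR replicate 2 and OV-CTRL replicate 3. With the NVR label, relative to OV-CTRL, the median log2 fold change of genes with over 5000 bases of exon was -0.12 and that of genes under 2000 bases 0.31. With ML355 these were -0.09 and 0.18. They were 0.14 and -0.49 in OV-L1-FGGY with DMSO set against OV-CTRL, and -0.32 and 0.79 in the NVR-labelled libraries relative to OV-L1-FGGY with DMSO. The part of length in the members' values was not tested. ANKRD1, with 1790 bases of exon, was the shortest member. Its log2 deviations in OV-CTRL replicates 1 and 3 and NVR replicates 2 and 3 were -0.05, 0.08, -0.14 and -0.32. The medians of genes under 2000 bases in these libraries were 0.13, -0.08, -0.19 and 0.20.

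**Figure D4:**
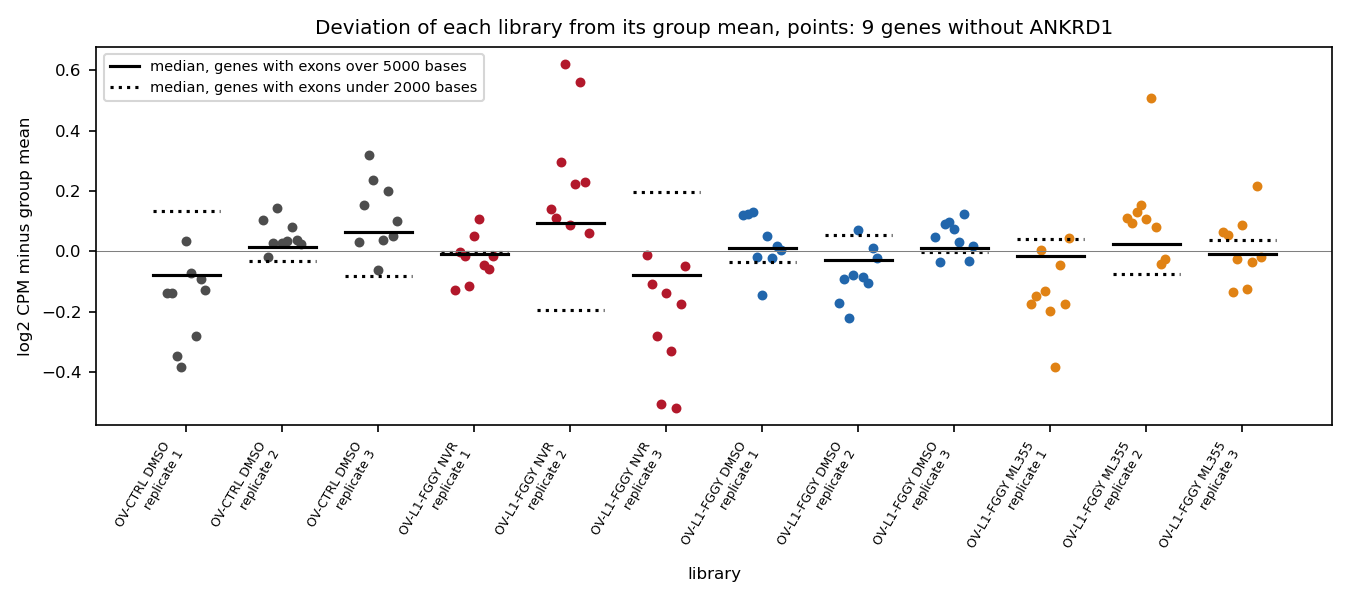
Log2 CPM minus the group mean (y axis) in each of the 12 libraries (x axis) for the 9 genes other than ANKRD1 (points), with the median of all tested genes with over 5000 (solid line) or under 2000 bases of exon (dotted line). In NVR replicate 3 the 9 points lie below 0, and the medians of long and short genes are -0.08 and 0.20.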

How the data were processed

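Total RNA of NCI-H520 cultures was sequenced in 12 libraries, 3 for each of 4 groups. Reads were mapped by the authors with STAR 2.5.3a to hg38 and assigned to genes with HTSeq 0.11.2, and the deposited values are whole-number counts without normalization. The annotation release and the use of strand in counting are not given in the sources used here, so reads of a gene and of one antisense to it cannot be told apart. The labels name a TruSeq kit and the methods one from NEB. Groups follow the labels. The NVR columns carry no construct prefix, and the columns headed DMSO alone were assigned to the control group by elimination against the sample titles.

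Positions and exon lengths came from GENCODE 44, which held 57532 of the 58302 gene identifiers. In R 4.3.3, edgeR 4.0.16 was run with filterByExpr, TMM factors and its quasi-likelihood test, with the means of all 4 groups in one fit and Benjamini-Hochberg adjustment over the 17849 genes tested. An adjusted p under 0.01, the threshold of the methods, counted as passing. The standard error of a log2 fold change was taken from this test, as its absolute value divided by the square root of the F statistic. Beside values given as a description it is printed without a test being read from it. Voom of limma 3.58.1 (the test the methods name), DESeq2 1.42.0 and other scalings, filters, thresholds and left-out libraries were alternatives. Correlations and deviations used log2 CPM with a prior count of 2. The steps were tested on simulated data, and figures were drawn in Python 3.11.15 with matplotlib 3.10.9. Floors of 3 counts cover counting error only.

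The members, lists and comparisons were chosen with earlier results of these data known. Named besides the 10 members were up to 3 genes per list and comparison with the smallest adjusted p, their paralogs, the 5 genes most like ANKRD1, and FGGY. Genes named for a count of 5 or fewer, or for a marker at 0, were chosen after their values were seen. Results of 2 genes of these lists are not reported here.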

Additional observations from a re-analysis of the deposited data

Results flagged for a closer look

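AXL moved in opposite directions with ML355 and with the NVR label when each was set against a different DMSO group. With ML355 in OV-L1-FGGY its log2 fold change was 0.58, and all 3 libraries lay above the DMSO libraries. In the NVR-labelled libraries compared with OV-CTRL it was -1.40, and all 3 lay below the control libraries. The DMSO groups of these comparisons differ: relative to OV-L1-FGGY with DMSO, the baseline of ML355, AXL was higher in the NVR-labelled libraries too, at 0.35 (edgeR adjusted p = 0.00289). That call was lost without any one of DMSO replicates 1, 2 or 3 or NVR replicates 1 or 2. It was also lost with scaling by library size alone, where the value was 0.11. A direction opposite to that of ML355 was seen with OV-CTRL as the baseline, and the difference between the changes was not tested.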

How the results depend on the processing

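ANKRD1 had 29 counts or fewer in every library outside OV-CTRL, which limits its fold changes. Member counts are over the 10 members with ML355 and over the 9 tested, without ANKRD1, where the NVR or OV-CTRL libraries enter; none was made in the contrast that chose ANKRD1. With a log2 fold change of at least 1 in either direction added to the threshold, 4590 genes and 2 members passed with ML355, 4 members in the NVR-labelled libraries relative to OV-L1-FGGY with DMSO, and 2344 genes in them compared with OV-CTRL, where 8004, 7, 7 and 5316 passed without it, since this threshold is stricter by construction. Leaving out 1 library at a time, 6852 to 7578 genes and 6 to 7 members passed with ML355. In the NVR-labelled libraries, 12454 to 13142 genes and 6 to 7 members passed relative to OV-L1-FGGY with DMSO, and 3506 (without OV-CTRL replicate 2) to 6106 genes compared with OV-CTRL. In OV-L1-FGGY with DMSO set against OV-CTRL it was 11438 to 11776 genes and 8 members. No called value turned its direction under any alternative run. With at least 10 counts required in every library, ANKRD1 could not be tested. Scaling by library size alone shifted the median of all genes by -0.13 (ML355), by -0.24 and -0.16 (NVR-labelled libraries relative to OV-L1-FGGY with DMSO and to OV-CTRL) and by 0.08. Under it CCN2 lost its call in OV-L1-FGGY with DMSO set against OV-CTRL (edgeR adjusted p = 0.0112), and in the NVR-labelled libraries compared with OV-CTRL the log2 fold changes of YAP1, WWTR1, CCN1 and AXL were -0.54, -0.72, -1.46 and -1.56. The cause was not tested.

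With the replicate block, 7583 genes passed with ML355, 12874 and 4754 in the NVR-labelled libraries relative to OV-L1-FGGY with DMSO and to OV-CTRL, and 11979 in OV-L1-FGGY with DMSO set against OV-CTRL. The block added CCN2 in the NVR-labelled libraries relative to OV-L1-FGGY with DMSO (-0.58, edgeR adjusted p = 0.00799) and changed no other call of a member given in the report. Deviations of same-numbered libraries correlated with r between -0.35 and 0.17, so the numbers were not taken to pair the samples.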
